A study of Caenorhabditis elegans with 4 samples.

Results

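The histone genes of Caenorhabditis elegans were examined for binding by SEA-2, a zinc finger protein known from sex determination, where it acts on the master switch gene xol-1. They were taken as all protein-coding genes whose name begins with his-, which gave 72 of the 19985 protein-coding genes of the reference annotation. Chromatin immunoprecipitation with sequencing (ChIP-seq) recovers the DNA attached to a protein. It was done here on whole L3 larvae of mixed sex. All libraries came from strain OP193, which carries the mutation unc-119(ed3) and the integrated transgene wgIs193. The transgene expresses SEA-2 with a tag of TY1, EGFP and FLAG at its C-terminus, and it also holds a copy of unc-119. The labels gave 4 biological replicates of 1 group and no other genotype, treatment or stage, so no contrast between conditions was possible. They did not give what drives the transgene, and whole larvae pool all tissues, so binding in a few cells and binding in many cannot be told apart. Replicates 1 and 2 are labelled with fragments of 150 to 350 bp, whereas replicates 3 and 4 are labelled with sonication and with worms from another provider.

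Core histones H2A, H2B, H3 and H4 form the protein spool of the nucleosome, and the linker histone H1 binds the DNA where it enters and leaves the spool. Most animals make the bulk of their core histones from many near-identical gene copies that lie in clusters, lack introns and are transcribed while DNA is replicated. Replacement histones such as H3.3 are made throughout the cell cycle, and their genes usually stand alone and carry introns. In this worm, most clustered core histone genes are arranged back to back, so that a short shared stretch of DNA serves as the promoter of an H2A gene and an H2B gene, or of an H3 gene and an H4 gene.

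The 72 genes comprised 17 H2A, 16 H2B, 15 H3, 16 H4 and 5 H3.3-type genes, the linker histone gene his-24, and 2 genes, his-73 and his-39, which RefSeq describes by a histone domain alone. Genes up to 5000 bp apart were joined, which gave 11 clusters of 3 or more with 61 genes, 3 isolated pairs with 6 genes and 5 single genes. The largest cluster, on chromosome II, held 13 genes within 10938 bp. Back-to-back arrangement accounted for 62 genes in 31 pairs, whose starts lay 228 to 369 bp apart with a median of 259 bp. Of these pairs 16 joined H2A with H2B and 14 joined H3 with H4. The remaining pair, his-67/his-68 on chromosome I, joined H4 with H2A. Introns were annotated in 8 of the 72 genes, namely his-72, his-57, his-35, his-41, his-37, his-74, his-71 and his-24.

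A gene was counted when the summit of a peak, its highest point, lay from 1000 bp upstream to 200 bp downstream of one of its annotated starts. The deposited lists were a final list of 312 peaks and a pooled list of 3912 peaks called from all replicates together. There were also replicate lists of 23684 to 30000 peaks. Both the pooled and the replicate lists include background regions, so a summit in them is not by itself a site of binding. The final peaks were the 312 strongest pooled peaks by the signal value of the authors' peak caller. The scale of that value is not stated, so it served only to rank peaks within a list, where rank 1 is the strongest. The read depth of the libraries is unknown. All positions are on the build ce11.

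Histone promoters held 8 pooled peaks, and the DNA under them is shown first because most of them carry the same word. The pooled −log10 q, larger for a peak called with more confidence, was 2.56 at his-67/his-68, his-37 and his-72. It was lower at the other peaks, down to 0.0733 at his-24, so the word rests partly on peaks of low confidence. The word ATGTGTCCCNGCAG, where N is any base, lay within 100 bp of the summit in 6 of the 8 peaks. It was found as the longest word, with at most 1 free base, shared by at least 6 of these 8 peaks on either strand. It was therefore chosen after the peaks were seen, and no test was applied to it. The sequences are read 5′ to 3′ on the plus strand of ce11, around the pooled summit and trimmed at annotated exons, and capitals mark the word. They lie at chrV:9546939-9547059 for his-37, chrIV:7486375-7486495 for his-61/his-62, chrIV:8334094-8334214 for his-31/his-32, chrIV:7488055-7488175 for his-60/his-59 and chrX:14490010-14490093 for his-24. In the his-60/his-59 peak the capitals are the word on the minus strand.
his-37: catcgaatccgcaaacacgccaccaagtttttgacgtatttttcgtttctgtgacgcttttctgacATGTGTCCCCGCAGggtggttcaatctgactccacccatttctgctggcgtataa
his-61/his-62: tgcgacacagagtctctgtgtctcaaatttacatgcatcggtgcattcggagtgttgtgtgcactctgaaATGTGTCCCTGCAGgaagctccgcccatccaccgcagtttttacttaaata
his-31/his-32: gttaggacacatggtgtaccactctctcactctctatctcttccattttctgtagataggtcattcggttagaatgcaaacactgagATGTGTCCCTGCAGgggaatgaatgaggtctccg
his-60/his-59: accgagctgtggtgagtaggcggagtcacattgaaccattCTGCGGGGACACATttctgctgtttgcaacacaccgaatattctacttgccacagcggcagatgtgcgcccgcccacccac
his-24: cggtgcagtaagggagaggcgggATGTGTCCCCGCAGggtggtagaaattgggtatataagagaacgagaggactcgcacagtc

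The peaks at his-72 (chrIII:12369162-12369282) and his-35/his-41 (chrV:9545476-9545535) did not contain the word, and their sequences are given for contrast. The his-72 stretch contains a CACGTG, which no other of the 8 histone peaks had within 100 bp of its summit.
his-72: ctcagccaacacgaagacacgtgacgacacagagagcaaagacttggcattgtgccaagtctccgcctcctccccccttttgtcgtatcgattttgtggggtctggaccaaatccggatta
his-35/his-41: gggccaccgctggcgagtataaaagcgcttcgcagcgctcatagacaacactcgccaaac

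The last pair of sequences comes from histone promoters without a pooled peak. The whole stretch between the starts of his-6 and his-5 (chrV:8534978-8535213) contained the word, and no list had a summit in the promoter window of either gene. The stretch between the starts of his-2 and his-1 (chrV:16042284-16042519) came within 1 mismatched base of the word, and neither gene had a pooled summit.
his-6/his-5: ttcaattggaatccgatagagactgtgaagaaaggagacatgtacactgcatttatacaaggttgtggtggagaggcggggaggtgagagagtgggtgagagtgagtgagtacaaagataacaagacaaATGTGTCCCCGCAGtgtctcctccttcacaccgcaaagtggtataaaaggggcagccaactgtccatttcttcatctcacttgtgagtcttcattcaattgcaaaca
his-2/his-1: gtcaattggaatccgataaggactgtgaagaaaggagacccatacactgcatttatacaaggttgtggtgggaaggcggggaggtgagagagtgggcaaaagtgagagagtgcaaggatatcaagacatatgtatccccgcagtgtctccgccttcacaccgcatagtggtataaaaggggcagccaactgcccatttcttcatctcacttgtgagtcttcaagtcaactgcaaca

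In the final list, 4 of the 72 histone genes had a summit (5.56%, exact 95% interval 1.53 to 13.6%), against 1.11% of all protein-coding genes. They were his-67, his-68, his-37 and his-72, reached through 3 peaks. In the pooled list, 13 histone genes had a summit (18.1%, exact interval 9.98 to 28.9%) through 8 peaks, against 9.24% of all protein-coding genes. The intervals cover counting error only and treat genes as independent, whereas back-to-back partners share a peak. With only the nearest protein-coding start counted for each summit, the pooled count fell to 8 histone genes, against 7.31% of all protein-coding genes. Among pooled peaks with a −log10 q of at least 2 it fell to 4, against 0.806%. Genes that stand back to back, with starts up to 1000 bp apart, can share a summit whatever their kind. In the pooled list 10 of the 62 back-to-back histone genes had a summit (16.1%, exact interval 8.02 to 27.7%), against 16% of all back-to-back protein-coding genes, so the difference seen over all genes was not seen within this arrangement. In the final list 2 of these 62 had one (3.23%), against 2.08%. With unique promoters alone, as defined further on, the pooled counts were 10 of 21 back-to-back histone genes (47.6%), against 16.5% of all back-to-back protein-coding genes. Among the 312 strongest peaks of each replicate, 4, 4, 6 and 5 histone genes had a summit in replicates 1, 2, 3 and 4, against 1.14, 0.921, 1.12 and 0.916% of all protein-coding genes. The mean was 4.75 ± 0.957 histone genes, or 6.6 ± 1.33%, against 1.02 ± 0.123% of all protein-coding genes (SD, n = 4). The counts of 4 belonged to the replicates labelled with a size range. The counts of 6 and 5 belonged to those labelled with sonication and with worms from another provider. Preparation and provider cannot be told apart here, and their part in this was not tested. Over the whole replicate lists the order turned round, with 17, 17, 18 and 19 histone genes (24.7 ± 1.33%) against 34.8, 37.8, 41.4 and 40.2% of all protein-coding genes (38.6 ± 2.92%).

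The his-67/his-68 peak (chrI:9988792-9989131) was the strongest at a histone promoter, with pooled rank 8 and a pooled signal value of 140. Its ranks were 12, 50, 32 and 13 in replicates 1 to 4, all well inside the strongest 312. The pooled summit lay 199 bp upstream of the H4 gene his-67 and 170 bp upstream of the H2A gene his-68, and the replicate summits lay from 3 bp to one side of it to 1 bp to the other. The word occurred in 2 copies in this promoter, on either side of the summit. The summit also lay 840 bp upstream of an annotated start of alg-5, a gene for an Argonaute protein of small RNA pathways, so the peak does not by its position belong to the histone genes alone. Without summits shared with the window of another protein-coding gene, 2 histone genes were left in the final list, his-37 and his-72.

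The his-37 peak (chrV:9546829-9547168) had pooled rank 20 and a pooled signal value of 118. Its ranks were 46, 230, 31 and 42 in replicates 1 to 4, so that replicate 2 stood apart while still inside the strongest 312. The summit lay 106 bp upstream of his-37, an H4 gene with an intron that stands beside the back-to-back genes his-35 and his-41. No other gene's promoter window contained this summit, and the centre of the word, printed above, was 13 bp from it.

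The his-72 peak (chrIII:12369052-12369391) had pooled rank 126 and a pooled signal value of 77.5. The ranks of the overlapping peaks were 214, 156, 117 and 5030 in replicates 1 to 4, so that replicates 1 to 3 lay inside their strongest 312 peaks and replicate 4 lay far outside its strongest 312. The pooled summit lay 172 bp upstream of his-72, which encodes an H3.3-type replacement histone, and 678 bp upstream of the snoRNA gene Y49E10.36. The summits of replicates 1, 3 and 4 lay 71 to 102 bp closer to his-72 than the pooled summit.

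Below the final list, the next 5 histone peaks ran in pooled rank from 416 to 2692. Their pooled −log10 q values were 1.31, 1.12, 0.855, 0.398 and 0.0733, in the order in which they follow. The his-61/his-62 peak (chrIV:7486265-7486604), between an H2A and an H2B gene, had pooled rank 416 and ranks 2894, 695 and 126 in replicates 1, 3 and 4, with no overlapping peak in replicate 2. The his-31/his-32 peak (chrIV:8333984-8334323), between an H4 and an H3 gene, had pooled rank 491 and ranks 468, 12799, 622 and 26273 in replicates 1 to 4. The his-60/his-59 peak (chrIV:7487945-7488284), also between an H4 and an H3 gene, had pooled rank 584 and ranks 8143, 239 and 2113 in replicates 1, 3 and 4, with no overlapping peak in replicate 2. These 3 peaks were each strong in some replicates and weak or missing in others, with replicate 2 weak or missing at all of them.

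The his-35/his-41 peak (chrV:9545366-9545705), at 2 intron-bearing genes for H2A and H2B, had pooled rank 1010 and ranks 540, 1057 and 4454 in replicates 1, 3 and 4, with no overlapping peak in replicate 2. Its pooled summit lay on the annotated start of his-41, and the replicate summits were spread over more than 200 bp around it. The window of the protein-coding gene C50F4.6 also contained this summit. The his-24 peak (chrX:14489900-14490239), at the linker histone gene, had pooled rank 2692 and ranks 5627, 13430 and 4957 in replicates 1, 2 and 4, with no overlapping peak in replicate 3. Its pooled summit lay 24 bp upstream of his-24 and also in the window of the noncoding RNA gene M163.19. None of the last 5 peaks was among the strongest 312 of more than 1 replicate, whereas the his-37 peak and the peak between his-67 and his-68 were so in all 4.

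**Figure D1:**
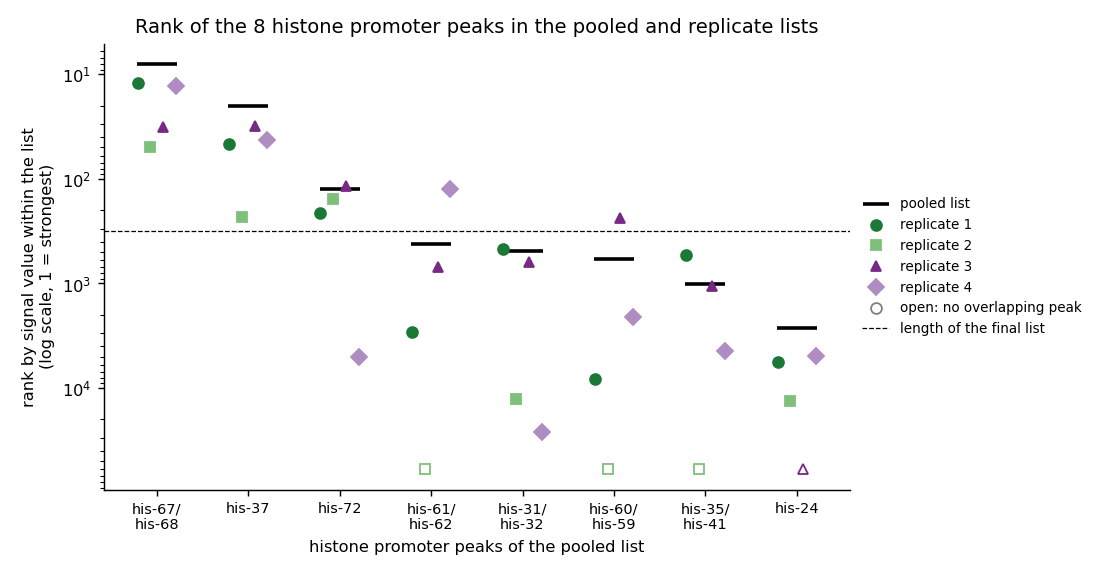
Rank of each of the 8 histone promoter peaks by signal value, on a log axis with the strongest at the top, in the pooled list (black bar) and in the overlapping peak of each replicate (coloured symbols); the dashed line is the length of the final list, 312 peaks, and open symbols at the bottom mark replicates with no overlapping peak. The his-67/his-68 and his-37 peaks lie above the line in all 4 replicates, his-72 in 3 of 4, his-61/his-62 only in replicate 4 and his-60/his-59 only in replicate 3.

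In the final list 1 of 61 clustered genes, 2 of 6 genes of isolated pairs and 1 of 5 single genes had a summit, against 1.11% of all protein-coding genes. In the pooled list 9 of 61 clustered genes (exact interval 6.98 to 26.2%), 2 of 6 paired genes (4.33 to 77.7%) and 2 of 5 single genes (5.27 to 85.3%) had one, against 9.24%. The final intervals were 0.0415 to 8.8% for clustered, 4.33 to 77.7% for paired and 0.505 to 71.6% for single genes. All these intervals treat genes as independent, whereas the 2 paired genes share 1 peak. A difference between clustered, paired and single genes was not tested. With unique promoters alone, the pooled list reached 9 of 20 clustered genes (45%), 2 of 6 and 2 of 5. The share over all protein-coding genes with a unique promoter was 9.5%. The 9 clustered genes belonged to 3 of the 11 clusters. All 4 genes of the his-61/his-62 and his-60/his-59 cluster and all 3 genes of the his-35, his-41 and his-37 cluster had a pooled summit, and 2 of 6 genes had one in the cluster that holds his-31 and his-32. By class, the pooled list reached 3 of 17 H2A, 2 of 16 H2B, 2 of 15 H3, 4 of 16 H4 and 1 of 5 H3.3-type genes and the linker histone gene. These class counts were not split by promoter uniqueness, so they mix the class of a gene with the uniqueness of its promoter. Of the 8 genes with an annotated intron 5 had a pooled and 2 a final summit, against 8 and 2 of the 64 genes without one. Over all protein-coding genes the pooled shares were 9.36% with and 5.88% without an intron, and the final shares 1.1% and 1.29%. A unique promoter was present in 7 of the 8 histone genes with an intron, against 24 of the 64 without. Among these the pooled counts were 5 of 7 against 8 of 24. Over all protein-coding genes with a unique promoter the pooled shares were 9.6% with and 6.65% without an intron. The 3 intron-bearing genes without a pooled summit were his-57, his-74 and his-71.

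Repetition of the DNA moved with these counts. Reads that fit several places in a genome are commonly dropped or placed at random, and how the authors treated them is not given in the sources used here. Uniqueness was therefore measured on the reference, as the share of 36-base stretches of a promoter window that occur once in the genome. Its median was 24.6% over the histone genes, against 100% over all protein-coding genes. At least 50% of the window was unique for 31 of the 72 histone genes (43.1%), against 97.1% of all protein-coding genes. The other 41 histone genes all lay in clusters, and 20 of them had no unique stretch at all. With 50-base stretches, 32 histone genes reached 50%.

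All 13 histone genes with a pooled summit were among the 31 with a unique promoter. These 31 genes gave 4 in the final list (12.9%, exact interval 3.63 to 29.8%), against 1.13% of all protein-coding genes with a unique promoter. They gave 13 in the pooled list (41.9%, exact interval 24.5 to 60.9%), against 9.5%. In the whole replicate lists they gave 16, 16, 17 and 19 genes (54.8 ± 4.56%, SD, n = 4), against 35.8, 38.8, 42.6 and 41.3% of all protein-coding genes with a unique promoter (39.6 ± 3.01%). Of the 41 histone genes without a unique promoter 0 had a summit in the final or in the pooled list, where 3 genes would be 7.32%, and 1, 1, 1 and 0 did in the whole lists of replicates 1 to 4, against 2.45, 3.85, 2.98 and 2.63% of all protein-coding genes under 50%. In the final and the pooled list, 0.35% of all protein-coding genes under 50% had a summit. With repeated promoters, absence from the lists thus does not separate an unbound gene from one whose reads could not be placed, and these cannot be told apart.

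**Figure D2:**
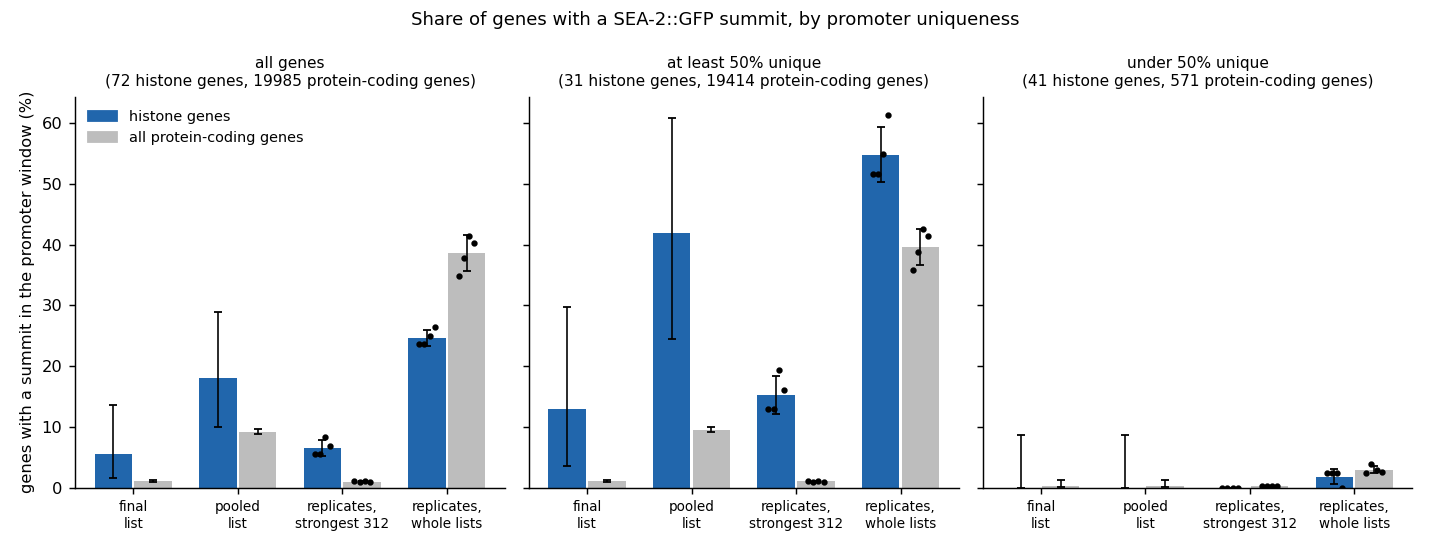
Share of genes with a summit in the promoter window, in percent, for histone genes (blue, left bar of each pair) and all protein-coding genes (grey), over all genes and split at 50% unique 36-base stretches. Error bars are exact 95% intervals for the final and pooled lists and SD over the 4 replicates (dots) for the replicate lists. In the middle panel histone genes lie higher in each pair of bars, at 41.9% against 9.5% in the pooled list, and in the right panel they are at 0 in the final and pooled lists.

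**Figure D3:**
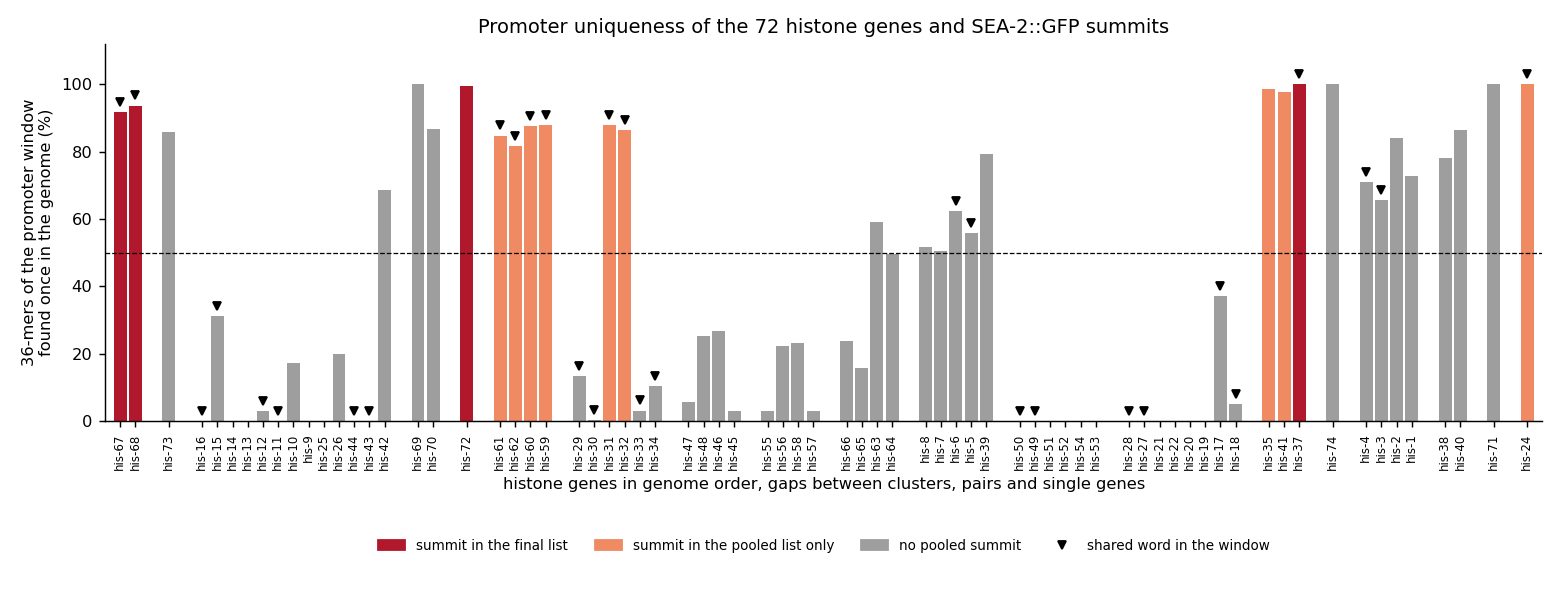
Share of 36-base stretches of each promoter window that occur once in the genome, in percent, for the 72 histone genes in genome order, with gaps between clusters, pairs and single genes. Colours give the summit found (final list, pooled list only, none), triangles mark windows with the shared word, and the dashed line is 50%. All red and orange bars lie above 80%, and 20 genes are at 0.

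No list at all had a summit for 43 of the 72 histone genes (59.7%), against 23.7% of all protein-coding genes. Of the 43 genes 38 had a repeated promoter, which was 92.7% of the histone genes of that kind, against 90.9% of all protein-coding genes of that kind. The other 5 were his-73, his-63, his-6, his-5 and his-39, out of 31 histone genes with a unique promoter (16.1%), against 21.8% of all protein-coding genes with one. Neither his-73 nor his-39, the genes described by a histone domain alone, had a summit in any list.

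Back-to-back pairs had the pooled summit between their starts in 5 of 31 cases (16.1%), against 11.8% of 1822 back-to-back pairs of any protein-coding genes. In the final list the count was 1 of 31 (3.23%), against 1.43%. Among the 11 histone pairs with a unique stretch between the starts, the 5 pooled cases made up 45.5%. The share over protein-coding pairs with a unique stretch was not counted, so this value has no background of its own kind. The 11.8% covers pairs of any uniqueness with starts up to 1000 bp apart. They were his-67/his-68, his-61/his-62, his-60/his-59, his-31/his-32 and his-35/his-41. In the first 4 of these the pooled summit lay within 54 bp of the midpoint between the starts. The 6 unique pairs without a pooled summit were his-63/his-64, his-8/his-7, his-6/his-5, his-4/his-3, his-2/his-1 and his-38/his-40. Single replicates had summits between the starts at his-4/his-3 (replicate 2, rank 27613) and at his-38/his-40 (replicate 2), and no replicate did at the other 4.

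**Figure D4:**
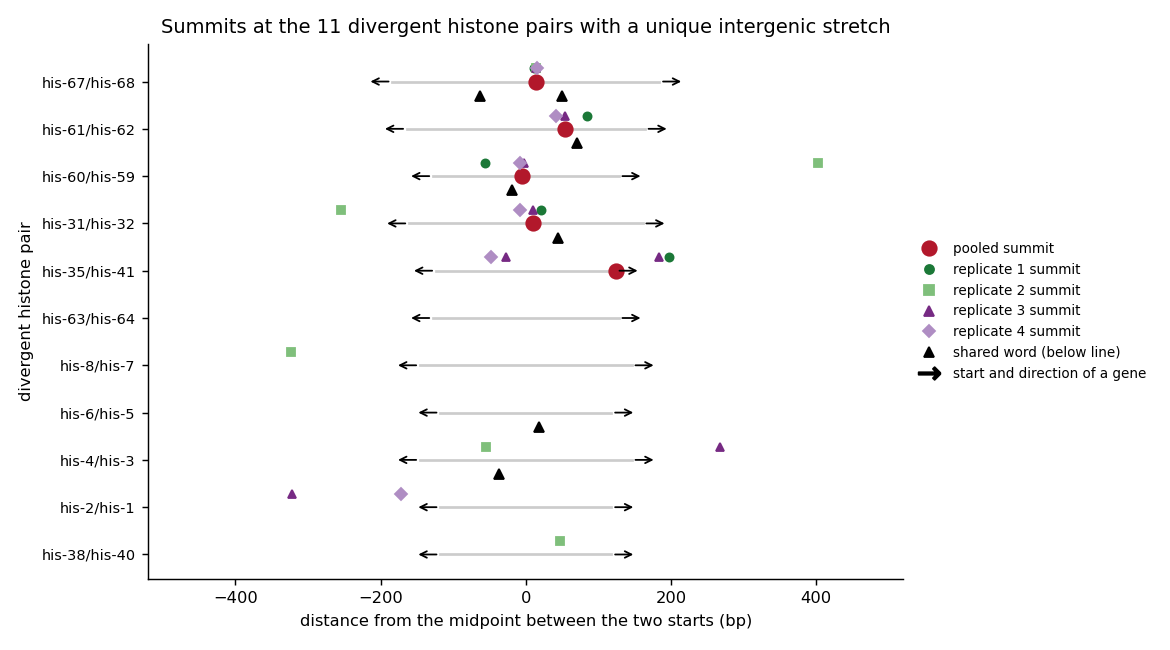
Summits at the 11 back-to-back histone pairs with a unique stretch between their starts, by distance in bp from the midpoint of each pair. Grey lines span the starts, arrows give the direction of each gene, large red dots are pooled summits, small symbols above the line are replicate summits and black triangles below it are copies of the shared word. Pooled summits appear at the top 5 pairs, within 54 bp of the midpoint in 4 of them and on the start of his-41 in the fifth.

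The word of the printed peaks was rare in the genome and frequent at histone genes. The genome held 39 copies of ATGTGTCCCNGCAG on both strands together, 17 of them in histone promoter windows. It was found in the windows of 30 of the 72 histone genes (41.7%), against 39 of 19985 protein-coding genes (0.195%), the 30 included. In the shorter window from 250 bp before to 50 bp after a start, it was again found in 30 histone genes (41.7%), against 0.165% of all protein-coding genes. Around the summits, 6 of 8 histone peaks had it within 50 bp, against 7 of all 3912 pooled peaks (0.179%) and 2 of the 312 final peaks. Of the 39 copies, 8 lay in a pooled peak, 7 of them at histone genes.

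Among the 31 histone genes with a unique promoter, 14 had the word, and 10 of these had a pooled and 3 a final summit. The 17 without the word had 3 pooled and 1 final summit. The 4 genes with the word and no pooled summit were his-6, his-5, his-4 and his-3. Among genes with a repeated promoter 16 had the word and 25 did not, with 0 pooled summits in either group. Counted over promoters, the word lay between the starts of 6 of the 11 unique back-to-back pairs, of which 4 had a pooled summit, and of 8 of the 20 repeated pairs, of which 0 did. Since the word was derived from the pooled histone peaks, its excess there is a description of these promoters and no separate evidence.

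**Figure D5:**
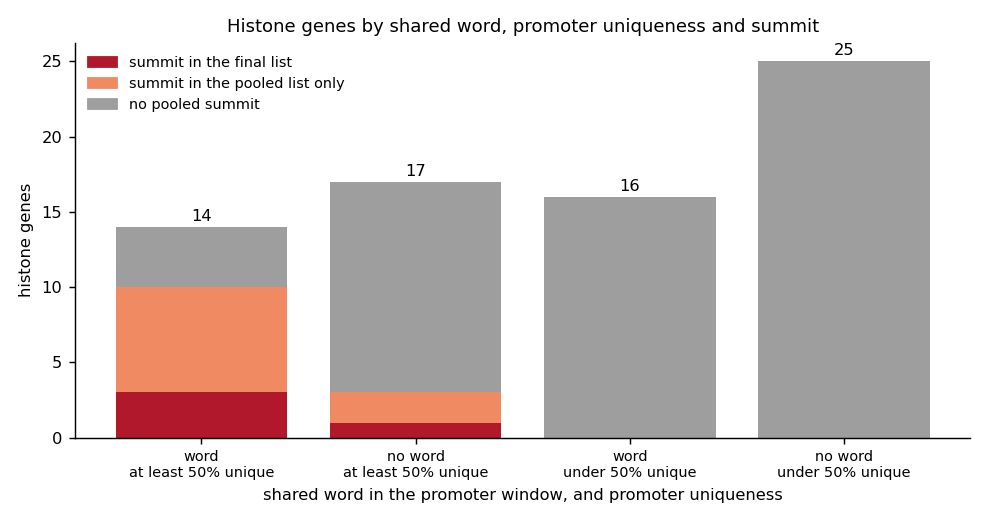
Number of histone genes by presence of the shared word in the promoter window and by promoter uniqueness, divided into genes with a final summit (red), with a pooled summit only (orange) and with no pooled summit (grey). Numbers above the bars are gene totals. Of the 14 unique genes with the word 10 had a pooled summit, and of the 17 without it 3 did.

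Other short sequences were counted on both strands in the 300 bp around the start. GAGAGA, which reads CTCTCT on the other strand, was in 33 of 72 histone promoters (45.8%), against 21.8% of all protein-coding promoters. Within 50 bp of the summit it was in 2 of the 8 histone peaks (25%), against 18.3% of all pooled peaks and 40.7% of the final peaks. TATAA, the core of a TATA box, was in 60 histone promoters (83.3%), against 57.8%, and CCAAT in 39 (54.2%), against 45.5%. GGTCTC was in 18 (25%), against 7.99%, and CACGTG in 1 (1.39%), against 5.81%. Histone promoters share stretches of near-identical sequence, so these counts are not counts of independent promoters.

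All 5 replacement histone genes of H3.3 type had a unique promoter. Only his-72, described above, had a summit in the final or pooled list (1 of 5, exact interval 0.505 to 71.6% in either). Of all protein-coding genes with a unique promoter 1.13% had a final and 9.5% a pooled summit. With 5 genes, the absence of a summit at the others does not separate them from all protein-coding genes. The neighbouring genes his-69 and his-70 on chromosome III had no pooled summit. The best rank of his-69 was 3108, in replicate 4 alone, and his-70 was reached in replicates 2 and 4 at ranks 14833 and 13038. On chromosome X, his-71, which like his-72 carries introns, was reached in replicates 1 and 4 at ranks 18842 and 23947. On chromosome V, his-74 was reached in replicate 1 alone, at rank 9458. The his-69 rank lies within the strongest 3912 peaks of replicate 4, which reach 7.54% of all protein-coding genes. The other ranks lie further down lists that reach 34.8 to 41.4% of all protein-coding genes as a whole.

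Genes that work with histones but carry other names were counted in the same way. Of 11 variant and linker histone genes 2 had a final and 4 a pooled summit, against 1.11 and 9.24% of all protein-coding genes. The final peaks were at the linker histone genes hil-7 (chrIV:6645962-6646301, pooled rank 236, 180 bp upstream) and hil-3 (chrX:8158999-8159338, pooled rank 254, on the annotated start). The hil-7 summit also lay in the window of the snoRNA gene C01B10.48. At hil-7 the ranks were 303, 83, 104 and 6044 in replicates 1 to 4, with replicate 4 far below the others, as at his-72. At hil-3 they were 793, 396, 2379 and 897, outside the strongest 312 of every replicate. The pooled list added htz-1, which encodes the H2A.Z variant, at rank 590, and hcp-3, which encodes the centromeric H3 variant, at rank 615. In the htz-1 window the ranks were 1802, 2906 and 190 in replicates 1 to 3, with no summit in replicate 4. The replicate 2 summit lay at -889 bp from the start, where minus is upstream, so it was not at the pooled site. The pooled summit lay at -271 bp and those of replicates 1 and 3 at -261 and -299 bp. In the hcp-3 window they were 1319, 12698, 7952 and 584 in replicates 1 to 4. The pooled hcp-3 summit also lay in the window of the piRNA gene 21ur-9360. The htz-1 window shares its summit with wapl-1. The linker gene hil-2 had the shared word in its window and a summit in replicate 3 alone, at rank 1346.

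Of 13 matched genes for histone chaperones, assembly factors and histone mRNA processing, 0 had a final and 2 a pooled summit. These were hmg-4, for a subunit of the FACT complex that moves nucleosomes during transcription, at pooled rank 2638, and nap-1, for a nucleosome assembly protein, at pooled rank 3037. Both summits also lay in the promoter window of another protein-coding gene, T20B12.3 at hmg-4 and praf-3 at nap-1. With 13 genes, 1.11 and 9.24% correspond to few or no genes, so these counts do not separate the list from all protein-coding genes.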

How the data were processed

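SEA-2::GFP ChIP-seq peak lists of 4 biological replicates of 1 group were used, on ce11. The records deposited with the files name 1 control for all libraries, a call per replicate, a call on the 4 alignments pooled, and a final list thresholded on the irreproducible discovery rate. The signal values and the −log10 q values are those the authors deposited from their peak caller. The sources used here give neither the aligner, the caller, that threshold, the depth nor how reads that fit several places were treated. Lists on ce10 were not used here.

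Summits were assigned to promoter windows of WBcel235 genes (Ensembl release 115), and histone genes were named by RefSeq symbols through WormBase identifiers, since 72 genes carry only 50 distinct Ensembl names. Worm transcripts are often trans-spliced, so a start here is the annotated one. Uniqueness was counted over both strands for 36-mers and 50-mers of the reference, with Python 3.11.15 and NumPy 2.4.6, and exact Clopper-Pearson 95% intervals came from SciPy 1.17.1. The scripts were tested on simulated sequences and peaks. With 1 group no test between groups was made; counts stand beside those of all protein-coding genes. The members, lists and motifs were chosen with earlier results of these data known. Named were histone genes with a final summit or a summit among the strongest 312 of a replicate, those with introns or of variant or linker type, the 5 histone peaks next below the final list, related genes with a pooled summit, and genes that share a histone peak. Genes named as lacking peaks were chosen after their values were seen. In the list of chaperone and processing genes, lsm-11 matched no gene and was left out.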

Additional observations from a re-analysis of the deposited data

Results flagged for a closer look

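With 4 replicates, a value was marked when its gap to the nearest other replicate was large against the range of all 4, by Dixon's 95% critical value. Chance marks about 1 in 20 sets of normally distributed values, and ranks need not be so distributed. Of 24 overlapping sets examined 5 were marked, but 3 of them are counts of 1, 1, 1 and 0, which are marked by their ties alone and to which that rate does not apply. The rank of the his-37 peak was 230 in replicate 2, against 46, 31 and 42 in replicates 1, 3 and 4. The rank of the his-72 peak was 5030 in replicate 4, against 214, 156 and 117 in replicates 1 to 3. Those 3 marks restate the his-72 value at the level of single histone genes: their count was 0 in replicate 4 and 1 in each other replicate, among the strongest 312, the strongest 1000 and the strongest 3912 peaks. Replicate 4 shares its labelled preparation with replicate 3, in which the his-72 rank was 117, the best of the 4. The cause of either value was not tested.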

How the results depend on the processing

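Other windows (500 bp upstream to 100 bp downstream, 2000 bp upstream to 200 bp downstream), the most 5′ start of each gene, any overlap of peak and window, and genes with unique promoters alone kept every count within 1.5 times its main value. So did the stronger 50% of the final list, final peaks found in at least 3 replicates, and the strongest 1000 pooled or replicate peaks. A final peak counted as found in a replicate when it overlapped one of that replicate's strongest peaks, as many as the final list holds. A peak not counted as found can still overlap a weaker one, as at his-72 in replicate 4 (rank 5030). With the nearest protein-coding start only, the pooled count fell to 8 histone genes, against 7.31% of all protein-coding genes, because a peak between 2 starts then counts once. With pooled peaks of −log10 q of at least 2 it fell to 4 histone genes, against 0.806%. The replicate mean was 8.75 histone genes over the strongest 3912 peaks, against 7.83%, and 17.8 over the whole lists, against 38.6%. Without summits that also lie in another protein-coding promoter window, an alternative chosen after seeing the data, the final count was 2 histone genes, his-37 and his-72, and the pooled count 9. Leaving out each replicate in turn reduced the final list to the 47 to 65 peaks found, by that rule, in each remaining replicate. These peaks reached 3 to 4 histone genes, against 0.195 to 0.255% of all protein-coding genes. The replicate mean was then 4.33 to 5. Joining genes over 2000 or 20000 bp changed no count of summits in clusters, pairs or singles. No paired analysis was possible because there is 1 group. Depth is unknown, so a missing peak in a replicate is not evidence of absence.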
